A study of Vitis vinifera with 6 samples.

Results

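The genes described here are the tandem run of xyloglucan endotransglucosylase/hydrolase (XTH) genes on grapevine chromosome 11, taken as the identifiers from VIT_11s0052g01190 to VIT_11s0052g01340 in number order whose FPKM, averaged across the 6 libraries, was 1 or more. FPKM is the number of fragments scaled by transcript length and by the fragments mapped in the library. The rule reads the level alone, but the run itself was picked with results of these libraries known, so its values are a description. The table lists 29971 genes, and 18119 of them reach that mean. Of the 16 identifiers listed in the run, 10 reach it and are the members. They are named below by the last part of the identifier, from g01190 to g01340. The table pairs no identifier with a gene name, so the XTH name of the run could not be checked against these values, and no separate role is given to any member.

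The libraries came from terminal buds of ‘Jingyanjing’, a diploid Vitis vinifera accession (2X), and of the autotetraploid that colchicine treatment produced from it (4X), with 3 libraries in each group. Vines of both ploidies were grown under the same standard care and differ by no other treatment. Buds were taken about a week before those of 4X abscised, and each library is a pool of buds from several vines, so it does not show the spread between single vines. In such bulk tissue, fewer cells that express a gene and less RNA per cell cannot be told apart. KNAP2 (VIT_18s0001g08380), a homeobox gene of the study's primer table and the shoot tip gene that was checked here, had 87.3, 63.6 and 80.8 FPKM in the 2X libraries, whereas those of 4X had 56.8, 53.6 and 43.2 FPKM. It was thus lower in every 4X library, 4X replicate 1 included, without a call (log2 fold change -0.58, adjusted p = 0.195 from limma), and its part in the results on the run was not tested. The study itself names KNAP2 among the auxin response genes that decreased in 4X, so its direction here is no independent evidence.

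4X replicate 1 stood apart from the other libraries of its ploidy. The squared correlation (R2) of log2(FPKM + 1) across all genes was 0.965 and 0.971 between 4X replicate 1 and 4X replicates 2 and 3, and 0.981 between the latter pair. Against the 2X libraries, 4X replicate 1 had an R2 of 0.974 to 0.978. In the comparison of 4X with 2X over all genes tested, limma (linear models with a shared estimate of the spread) called 11 genes higher and 5 lower (0.0607% and 0.0276%) at a Benjamini-Hochberg adjusted p under 0.05. Without 4X replicate 1 it called 185 higher and 569 lower. The members are therefore described by the values of all 3 4X libraries, and their tests are given with and without 4X replicate 1.

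XTH enzymes work in the cell wall. They cut chains of xyloglucan, the hemicellulose that coats and links cellulose microfibrils, and either rejoin the cut end to another xyloglucan chain or release it by hydrolysis. Growing organs use them to loosen, extend and strengthen walls. In Arabidopsis the family is large, some members lie in tandem arrays, and several respond quickly to touch, to auxin and to brassinosteroids.

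In 2X, 3 members stood well above the others, and the order among the rest changed between libraries. g01260 was the most abundant member, with 105 ± 16.5 FPKM (SD, n = 3). It was followed by g01300 with 49.2 ± 6.91 FPKM and g01270 with 46.2 ± 6.27 FPKM (SD, n = 3), with a difference smaller than the SD of either. These 3 genes together made up 78.8% to 82.5% of the summed FPKM of the members in the 2X libraries. The next members in 2X were g01330 with 11.1 ± 2.28, g01190 with 10.3 ± 2.42 and g01200 with 7.95 ± 2.11 FPKM (SD, n = 3), and neighbours in this order lay within their spread. g01280 had 6.23 ± 1.92, g01250 5.91 ± 3.38 and g01340 4.50 ± 0.813 FPKM (SD, n = 3), again within each other's spread. g01220 was lowest with 0.793 ± 0.531 FPKM (SD, n = 3). FPKM is given per transcript length, so these levels can be set beside each other, but neighbouring copies that share sequence can also share reads. The sources used here do not state how such reads were counted, so the split between similar members is uncertain. For the same reason the members may not be separate measurements, and counts of members below are not counts of independent genes.

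The 4X libraries did not move together. In 8 of the 10 members, 4X replicate 1 lay above every 2X library, whereas 4X replicates 2 and 3 lay below every 2X library. The same arrangement was found in 4.02% of all genes tested, and the opposite one, found in 3.39%, in 0 members. With 4X replicate 1 not considered, 4X replicates 2 and 3 were below every 2X library in 18.7% of all genes. The arrangement was noticed in these libraries and is given as a description. g01260 had 86.2, 117 and 111 FPKM in 2X replicates 1, 2 and 3 and 190, 5.85 and 7.99 FPKM in 4X replicates 1, 2 and 3. Thus 4X replicate 1 was 1.81 times the 2X mean, and the 2X mean was 15.2 times the mean of 4X replicates 2 and 3.

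The other abundant members had the same arrangement. g01270 had 42.4, 42.7 and 53.4 FPKM in 2X and 142, 3.82 and 3.32 FPKM in 4X replicates 1, 2 and 3. g01300 had 41.6, 55.2 and 50.8 FPKM in 2X and 82.1, 2.88 and 3.35 FPKM in 4X replicates 1, 2 and 3. For both genes the difference between 4X replicate 1 and the other 4X libraries was far wider than the spread within 2X, where the highest library was 1.26 times the lowest for g01270 and 1.33 times for g01300.

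Of the 8 members, those with the largest excess in 4X replicate 1 were g01280, g01200 and g01190, all of middle abundance. g01190 had 7.67, 12.4 and 10.97 FPKM in 2X and 33.9, 0.594 and 0.893 FPKM in 4X replicates 1, 2 and 3. g01200 had 6.998, 6.49 and 10.4 FPKM in 2X and 41.1, 0.664 and 0.970 FPKM in 4X replicates 1, 2 and 3. g01280 had 4.03, 7.10 and 7.56 FPKM in 2X and 36.0, 0.448 and 0.732 FPKM in 4X replicates 1, 2 and 3. In 4X replicate 1, g01280 was at 5.77 times, g01200 at 5.17 times and g01190 at 3.27 times its 2X mean, and each was under 1 FPKM in both other 4X libraries. Within 4X alone, g01280 differed 61.0-fold between replicate 1 and the mean of replicates 2 and 3, the largest such ratio of the members. That ratio rests on values under 1 FPKM. On the log2(FPKM + 1) scale g01270 had the widest difference, 4.97, against 4.55 for g01280.

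At the far end of the run the excess in 4X replicate 1 was the smallest of the 8 members, while the low levels in 4X replicates 2 and 3 were as clear as elsewhere. g01330 had 8.51, 12.1 and 12.8 FPKM in 2X and 15.8, 0.775 and 1.21 FPKM in 4X replicates 1, 2 and 3. g01340 had 4.08, 3.98 and 5.43 FPKM in 2X and 6.22, 0.159 and 0.166 FPKM in 4X replicates 1, 2 and 3. In 4X replicate 1, g01330 was 1.42 times and g01340 1.38 times the 2X mean. The 2X mean of g01340 was 27.7 times the mean of 4X replicates 2 and 3, the largest such ratio of the 8 members, which ranged from 9.74 upward with a median of 13.4.

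**Figure D1:**
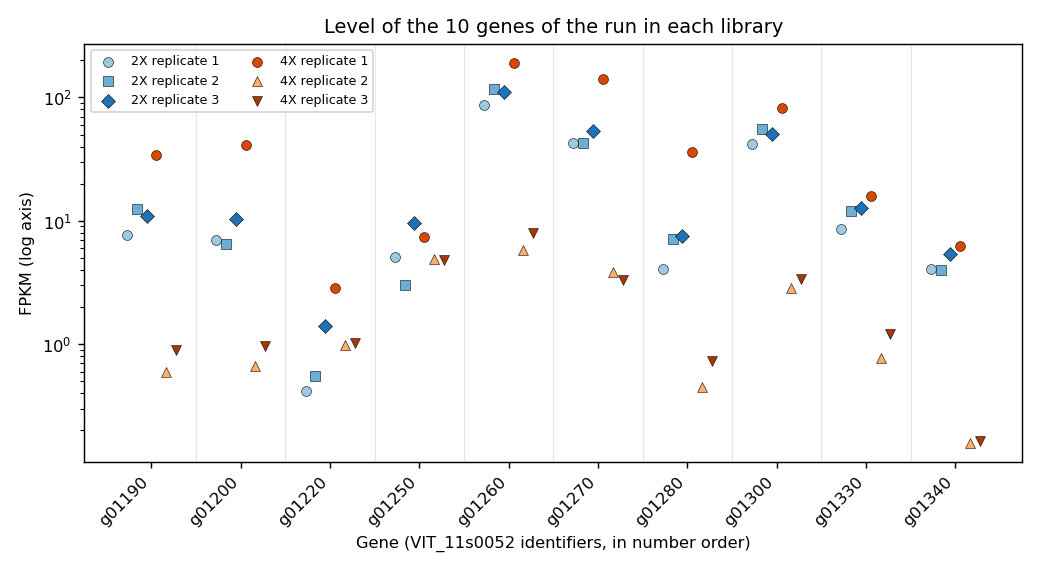
FPKM of the 10 members (log axis) in number order along the run, with a point for each of the 3 libraries of 2X (blue) and of 4X (orange and brown). In 8 members 4X replicate 1 is the highest point and 4X replicates 2 and 3 are the lowest, while in g01220 and g01250 the ploidies overlap.

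Both remaining members stood apart from the rest of the run. g01220 had 0.421, 0.556 and 1.40 FPKM in 2X and 2.85, 0.976 and 1.01 FPKM in 4X replicates 1, 2 and 3. It was highest in 4X replicate 1, as the 8 members were, but 4X replicates 2 and 3 lay within the range of 2X. g01250 had 5.07, 3.04 and 9.63 FPKM in 2X and 7.46, 4.92 and 4.80 FPKM in 4X replicates 1, 2 and 3, so that all 3 4X libraries lay inside the range of 2X. These genes had the widest spread within 2X, with a highest library 3.33 and 3.17 times the lowest, against 1.26 to 1.87 times in the 8 others. 4X replicate 1 was thus above every 2X library in 9 of the 10 members, against 29.5% of all genes tested. Of these 9, g01220 averaged under 1 FPKM over the other 5 libraries and is a member through 4X replicate 1 alone, so its place in that count is partly set by the rule.

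The limit of 1 FPKM leaves out 6 identifiers of the run. The member just inside it was g01220, with a mean of 1.20 FPKM over the 6 libraries, and the gene just outside was g01320, with 0.749. g01320 was at 0.0797, 0.159 and 3.15 FPKM in 2X and at 1.11 FPKM in 4X replicate 1, and it was listed at 0 in 4X replicates 2 and 3. g01310 was at 0.0898, 0.0894 and 0.189 FPKM in 2X and at 0.360 FPKM in 4X replicate 1, and it too was listed at 0 in 4X replicates 2 and 3. g01210, g01230 and g01240 had means of 0.00747, 0.163 and 0.0269 FPKM, and g01290 was listed at 0 in all 6 libraries. The table gives no counts, so the number of fragments behind such low values is unknown.

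Summed over the 10 members, the run held 207, 261 and 274 FPKM in 2X replicates 1, 2 and 3. In 4X replicate 1 it held 558 FPKM, 2.26 times the 2X mean, and in 4X replicates 2 and 3 it held 21.1 and 24.4 FPKM, with the 2X mean 11.7 and 10.1 times higher. The sum of 4X replicate 1 was 26.5 and 22.8 times those of the other 4X libraries, while the libraries of 2X differed little from their mean of 247 ± 35.4 FPKM (SD, n = 3). The run made up 0.0198% to 0.0244% of all FPKM in the 2X libraries, 0.0496% in 4X replicate 1, and 0.00205% and 0.00229% in 4X replicates 2 and 3. Its makeup differed as well. g01250 and g01220 together held 1.38% to 4.03% of the sum in 2X and 1.85% in 4X replicate 1, but 28.0% and 23.8% in 4X replicates 2 and 3. g01260 remained the most abundant member in every library, with 27.8% to 44.98% of the sum.

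**Figure D2:**
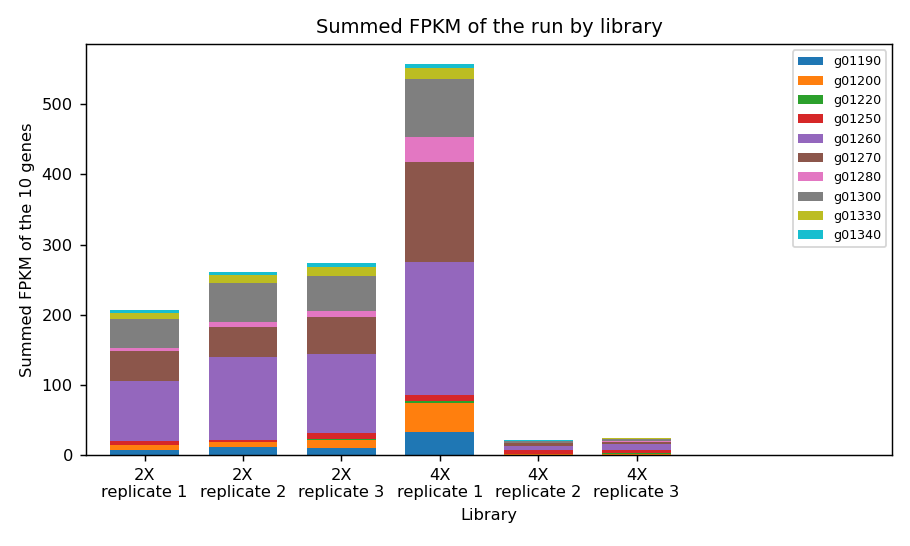
Summed FPKM of the 10 members in each of the 6 libraries, with a coloured segment for each member. The bar of 4X replicate 1 reaches 558 FPKM, the 2X bars lie between 207 and 274, and those of 4X replicates 2 and 3 are at 21.1 and 24.4.

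With all libraries in the comparison of 4X against 2X, limma called 0 of the 10 members in either direction, and 0 had an unadjusted p under 0.05. The groups did not overlap in 0 members, against 11.2% of all genes with every 4X library above 2X and 8.85% with every 4X library below. Over all genes tested 0.0883% were called and 14.3% had an unadjusted p under 0.05. The log2 fold change of the 8 members ranged from -2.21 to -0.64 on the log2(FPKM + 1) scale, with standard errors (SE) of 0.69 to 1.27 and adjusted p from 0.430 to 0.862 (limma). g01260 had the lowest value, -2.21 (SE 1.19, adjusted p = 0.455 from limma). For g01220 it was 0.51 (SE 0.34, adjusted p = 0.549 from limma) and for g01250 0.05 (SE 0.35, adjusted p = 0.974 from limma). The median over the members was -1.30, and over all genes tested it was 0.01. Since the pseudocount of 1 damps low values, these figures understate the change of the members that were under 1 FPKM in 4X replicates 2 and 3.

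Without 4X replicate 1, limma called 8 of the 10 members lower in 4X and 0 higher, where 3.14% of all genes tested were called lower and 1.02% higher. The library was left out with its values known, so this is a description of how far the comparison rests on it. The log2 fold changes of the 8 members then ranged from -3.74 to -2.15, with SE of 0.14 to 0.27 and adjusted p from 0.00145 to 0.0148 (limma). g01260 had -3.74 (SE 0.18, adjusted p = 0.00147 from limma) and g01280 -2.15 (SE 0.27, adjusted p = 0.0148 from limma). For g01250 the value was -0.12 (SE 0.38, adjusted p = 0.890 from limma), and for g01220 it was 0.19 (SE 0.28, adjusted p = 0.746 from limma). When 4X replicate 2 was left out, limma called 0 members, against 0.011% of all genes higher and 0.00552% lower, and 0 members had an unadjusted p under 0.05. When 4X replicate 3 was left out it again called 0 members, against 0.00552% of all genes higher and 0% lower, and 0 had an unadjusted p under 0.05. The part of the library itself in the difference, and that of the vines pooled in it, was not tested.

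**Figure D3:**
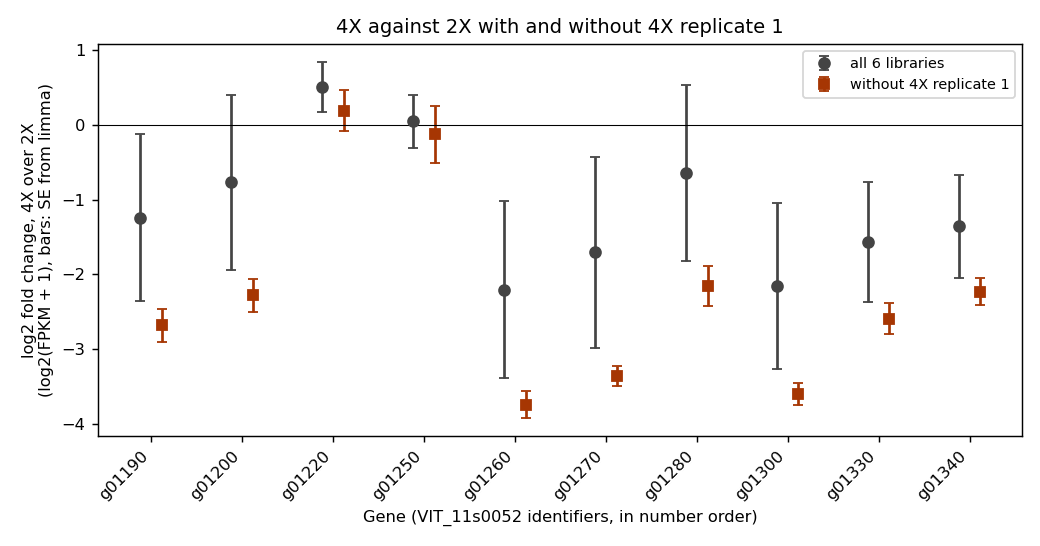
Log2 fold change of 4X over 2X on the log2(FPKM + 1) scale for each member, with bars of 1 SE from limma, from all 6 libraries (circles) and without 4X replicate 1 (squares). For the 8 members the squares lie between -3.74 and -2.15 with SE of at most 0.27, whereas the circles have SE of 0.69 to 1.27.

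The direction of the group means depended on the scale for a part of the run. g01190, g01200, g01270 and g01280 had a lower mean of log2(FPKM + 1) in 4X but a higher mean FPKM, since the mean FPKM of 4X is carried by 4X replicate 1. Of all genes tested, 1.2% had such a contrast. The mean FPKM was 6.23 in 2X and 12.4 in 4X for g01280, a ratio of 1.99, and the ratio was 1.79 for g01200, 1.14 for g01190 and 1.08 for g01270. g01260, g01300, g01330 and g01340 were lower in 4X on both scales, with ratios of mean FPKM of 0.485 to 0.648. g01200 and g01280 stand in the study's list of increased genes for the term extracellular region, together with VIT_11s0052g01180, the identifier just before the run. That list was chosen on these same libraries, and its direction is no independent evidence.

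By identifier number, the arrangement of the 8 members was also found in 1 tested gene just before the run. It was found in 0 of the flanking genes tested after it. VIT_11s0052g01180, which the limits of the run leave out, had 2.73, 5.16 and 4.42 FPKM in 2X and 22.7, 0.293 and 0.426 FPKM in 4X replicates 1, 2 and 3. This is the arrangement of the 8 members, with 4X replicate 1 at 5.53 times the 2X mean. Its log2 fold change was -0.50 (adjusted p = 0.884 from limma) with all libraries and -1.88 (adjusted p = 0.0174 from limma) without 4X replicate 1. The genes just after the run, VIT_11s0052g01350 and VIT_11s0052g01360, were listed at 0 in every library, so they cannot show where the arrangement ends. The next one, VIT_11s0052g01370, was tested and had 38.3 to 44.9 FPKM in the 6 libraries.

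Of the 34 identifiers listed from VIT_11s0052g01000 to g01180 and from g01350 to g01500, 13 were tested. Their groups were apart in 0 of the 13, against 20.1% of all genes tested, and limma called 0 of them (0 with an unadjusted p under 0.05). The median log2 fold change was -0.01 for the 8 genes before the run and -0.06 for the 5 after it. VIT_11s0052g01140 differed from the members in direction, with 64.7, 88.2 and 78.0 FPKM in 2X and 77.4, 137 and 136 FPKM in 4X replicates 1, 2 and 3, and it was chosen after its values were seen. Without 4X replicate 1, limma called it higher (log2 fold change 0.83, adjusted p = 0.0331) and VIT_11s0052g01180 lower, and the groups were then apart in 4 of the 13 genes as higher and in 2 as lower, against 21.8% and 18.7% of all genes tested. The medians were then 0.01 before the run and 0.01 after it. For all 810 genes tested on chromosome 11 outside the run, these 13 included, the median log2 fold change was 0.02. Of the 810, 34 had the arrangement of the 8 members, VIT_11s0052g01180 among them, against 4.02% of all genes tested. Without 4X replicate 1 the median was 0.03, and limma called 9 of the 810 higher and 20 lower, against 1.02% and 3.14% of all genes tested.

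**Figure D4:**
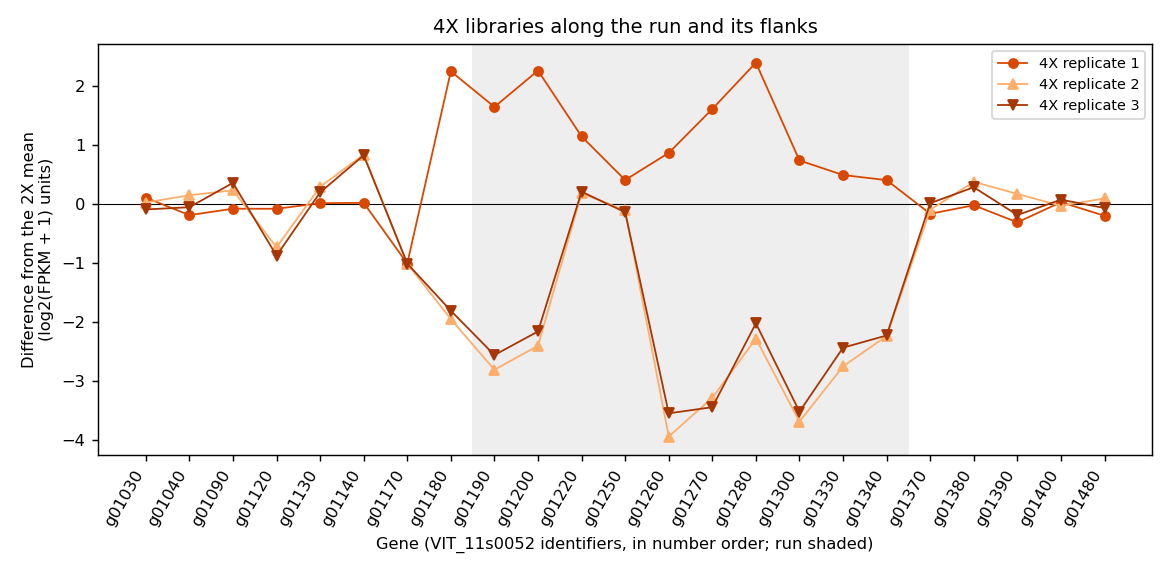
Difference of each 4X library from the 2X mean (log2(FPKM + 1) units) for the tested genes from VIT_11s0052g01030 to g01480, with the run shaded. 4X replicate 1 lies above 0 and 4X replicates 2 and 3 lie below it from g01180 to g01340 except at g01220. At g01250, 4X replicates 2 and 3 are close to 0 (-0.11 and -0.14), with 4X replicate 1 at 0.41. The lines return to near 0 from g01370 on (g01170 was above 0 FPKM in 2X replicate 2 alone, at 7.16 FPKM).

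Among all 18119 genes tested, ordered by how far 4X replicate 1 lay above the mean of 4X replicates 2 and 3 on the log2(FPKM + 1) scale, 6 members were in the first 13. That limit is the place of g01190 and was set after the places were seen, and 8 members were in the first 50. The order uses the contrast already noticed in these libraries, so it is a description. g01270 was at place 7 with a difference of 4.97, g01260 at place 8 with 4.61 and g01280 at place 9 with 4.55. g01330 was at place 24 and g01340 at place 41, whereas g01220 and g01250 were at places 648 and 1644. The members differed in size as well as in order: the difference of 4X replicate 1 from the 2X mean ranged from 0.40 to 2.39 over the 8 members, and that of 4X replicate 2 from -3.94 to -2.24. These sizes and places also depend on the level of a gene, since the pseudocount of 1 damps low values. g01340 had the smallest difference in 4X replicate 2 (-2.24) but the largest ratio of the 2X mean to the mean of 4X replicates 2 and 3 (27.7). Over all genes tested the same differences had medians of -0.01, 0.03 and 0.02 for 4X replicates 1, 2 and 3.

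**Figure D5:**
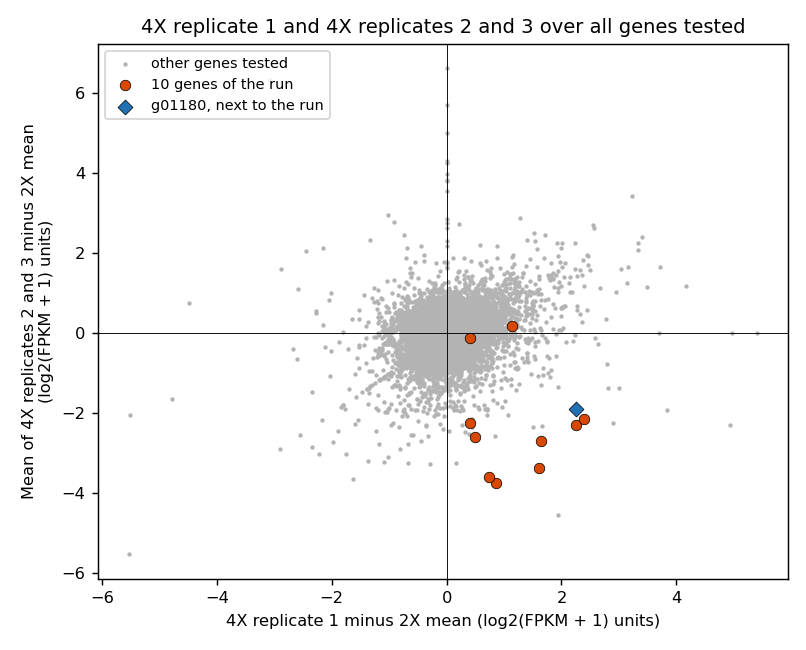
Difference of 4X replicate 1 from the 2X mean (x axis) against the mean difference of 4X replicates 2 and 3 (y axis), both in log2(FPKM + 1) units, for the 18119 genes tested. The 8 members and g01180 lie to the lower right of the mass of genes, at 0.40 to 2.39 on the x axis for the members, and g01220 and g01250 lie within it.

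The likeness of other genes to the run was measured as the root mean square difference, over the 6 libraries, between a gene's log2(FPKM + 1) and the mean of the members, each centred on its own mean. The 5 nearest genes outside the run were VIT_14s0066g02350 (0.22), VIT_10s0003g03800 (0.22), VIT_18s0001g05850 (0.27), VIT_10s0003g03790 (0.33) and VIT_06s0061g01390 (0.34), all without a name in the sources used here. VIT_14s0066g02350 had 24.5, 30.5 and 28.0 FPKM in 2X and 50.6, 3.88 and 3.73 FPKM in 4X replicates 1, 2 and 3. VIT_10s0003g03790 and VIT_10s0003g03800 have consecutive identifiers on chromosome 10. The neighbour VIT_11s0052g01180 came in at place 14 with 0.41. Among the members themselves, measured against the mean of the others, g01330 was nearest with 0.31, and g01220 and g01250 were farthest with 1.30 and 1.31.

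Other wall genes were read from the 5 complete lists on the wall in the study's table of gene ontology terms, which hold 53 genes together. The study chose these lists on the same libraries, so their directions are no independent evidence, and limma called 0 genes of any list with all libraries. In the list cell wall, from decreased genes, all 15 genes had a log2 fold change below 0, with a median of -0.76, and 8 had an unadjusted p under 0.05, against 14.3% of all genes tested. Set against the 2X mean, their median was -0.17 in 4X replicate 1, -1.06 in replicate 2 and -1.12 in replicate 3. The 17 genes of cell wall organization had -0.18, -0.81 and -0.97 in the same order, with 12 at an unadjusted p under 0.05, and the 6 genes of multidimensional cell growth had -0.17, -0.88 and -0.94, with 4. These lists thus had 4X replicate 1 a little below 2X at the median, where the run had it at a median of 1.00 above, against -2.58 and -2.33 in 4X replicates 2 and 3. Every 4X library, replicate 1 included, lay below every 2X library in 4 of the 15 genes of cell wall. The same held for 10 of the 17 genes of cell wall organization and 3 of the 6 of multidimensional cell growth, against 8.85% of all genes tested.

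Without 4X replicate 1, limma called 11 of the 15 genes of cell wall, 13 of the 17 of cell wall organization and 5 of the 6 of multidimensional cell growth lower, against 3.14% of all genes tested. VIT_09s0002g00320, which is in the first and the second of these lists, had 66.4, 56.4 and 84.4 FPKM in 2X and 61.2, 16.8 and 15.5 FPKM in 4X replicates 1, 2 and 3. VIT_06s0004g07970, in the second and the third, had 121, 104 and 240 FPKM in 2X and 98.2, 36.1 and 38.9 FPKM in 4X. VIT_01s0026g00200, of multidimensional cell growth, had 14.8, 12.9 and 13.6 FPKM in 2X and 16.9, 3.25 and 2.56 FPKM in 4X, and was the gene of that list with the arrangement of the run. VIT_08s0007g04950, of cell wall, was at 48.0, 56.4 and 70.3 FPKM in 2X and at 36.3, 15.5 and 16.1 FPKM in 4X.

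The lists from increased genes differed from the run in 4X replicates 2 and 3. The 22 genes of extracellular region, which include 2 members and VIT_11s0052g01180, stood at a median of 1.16, 0.69 and 1.05 above the 2X mean in 4X replicates 1, 2 and 3, and 13 had an unadjusted p under 0.05, again against 14.3% of all genes. The 5 genes of cell wall macromolecule catabolic process had 1.41, 0.59 and 0.72, and 4 had an unadjusted p under 0.05. Without 4X replicate 1, limma called 4 genes of extracellular region higher and 3 lower, and 1 of the catabolic genes higher, against 1.02% of all genes higher and 3.14% lower. The 3 called lower were the members g01200 and g01280 and the neighbour VIT_11s0052g01180. VIT_03s0088g00810, of extracellular region, had 97.6, 162 and 89.1 FPKM in 2X and 997, 285 and 253 FPKM in 4X replicates 1, 2 and 3. All 3 4X libraries lay above 2X in this gene, and 4X replicate 1 was the highest, as in the run. VIT_07s0005g06090 of the same list had 6.17, 7.14 and 19.9 FPKM in 2X and 25.1, 62.6 and 96.7 FPKM in 4X, with 4X replicate 1 the lowest of 4X. Of the catabolic genes, VIT_03s0038g03400 had 17.5, 33.9 and 11.5 FPKM in 2X and 79.2, 29.2 and 67.2 FPKM in 4X, and VIT_05s0094g00300 had 5.11, 7.37 and 5.11 FPKM in 2X and 17.0, 9.94 and 14.8 FPKM in 4X. The run and these lists share 4X replicate 1 above 2X, but in 8 members 4X replicates 2 and 3 were lower than 2X, where 16 of the 22 genes of extracellular region had both above it, against 21.8% of all genes tested. The 3 genes of that list with the arrangement of the run were its 2 members and VIT_11s0052g01180.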

How the data were processed

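RNA-Seq expression in terminal buds was compared between 2X and 4X, with 3 libraries of each as the sample labels group them. Read ends of low quality were removed by the authors (FASTX-Toolkit), TopHat2 2.0.14 placed the reads on the grapevine genome from Ensembl Plants, and Cufflinks 2.2.1 followed. The deposited values are FPKM per gene and library. The genome build, annotation version, strand and the treatment of reads with several positions are not given in the sources used here. How reads from similar copies were counted can change the split between members and how alike they are across the libraries. No counts are in the table. The smallest values (under 0.3 FPKM) gave depths of 0.976 to 1.10 relative to 2X replicate 1. 0 columns of values were left out.

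log2(FPKM + 1) was fitted with limma 3.58.1 in R 4.3.3, two-sided, with a variance trend, for the 18119 genes that averaged 1 FPKM or more. Adjusted p is by Benjamini-Hochberg over all of them, and called means under 0.05. SD is between libraries. The method was tested on simulated data with the spread of the 2X libraries in both groups. That test does not cover a 4X library that goes against the others of its ploidy. Summaries used Python 3.11.15, pandas 2.3.3 and numpy 2.4.6, and plots matplotlib 3.10.9.

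The members and lists were chosen with earlier results of these data known. Named were every identifier of the run, its nearest neighbours, the 5 genes nearest in profile, the 2 genes of each wall list with the largest absolute log2 fold change, and KNAP2. Looked up in a RefSeq name table, 0 identifiers matched, and no sequence or position is given. The alternatives were a pseudocount of 0.1, no filter, a filter on either ploidy, median scaling, quantile normalization, no trend, array weights, the replicate number as a block and leaving out each library. Linear means were added after seeing the data.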

Additional observations from a re-analysis of the deposited data

How the results depend on the processing

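With all libraries in, 8 other settings were tried on the 10 members. Of the 80 log2 fold changes, 0 changed sign and 74 stayed on their side of the threshold. The other 6 were called under array weights, where limma called 6 members lower, against 11% of all genes. This setting gives each library a weight, lowest for 4X replicate 1 (0.306) and highest for 4X replicate 3 (5.11). Its calls are thus not separate from those made without 4X replicate 1. The lowest adjusted p under the other settings with all libraries in was 0.390 (limma). With linear means, chosen after seeing the data, the log2 value turned to 0.19 for g01190, 0.84 for g01200, 0.11 for g01270, 0.99 for g01280 and -0.046 for g01250. With each library left out in turn, 0 to 8 members were called lower and 0 to 8 had their groups apart as lower, with 8 only without 4X replicate 1. From 0 to 1 had them apart as higher, with 1 (g01220) only without 2X replicate 3. The median of the members ranged from -2.44 to -0.68, against -1.30 with all libraries, -2.11 under array weights and 0.03 with linear means, where its sign turned, and the log2 ratio of the summed FPKM was -0.30 with all libraries and ranged from -3.44, without 4X replicate 1, to 0.24. The log2 fold change ranged from -2.28 to 0.0501 for g01200, from -2.15 to 0.18 for g01280 and from -0.28 to 0.42 for g01250. Of the wall lists, the median of extracellular region was 0.99, 1.32 with a pseudocount of 0.1, and 0.69 to 1.09 with libraries left out, and that of cell wall macromolecule catabolic process was 0.59 to 1.19. The cause of these shifts was not tested.

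The replicate numbers gave no sign of a pairing of the libraries, which 3 libraries per group cannot exclude. Deviations from the group means correlated at -0.01, -0.05 and 0.09 across genes for the numbers 1, 2 and 3, and 2X replicate 1 was nearest to 4X replicate 2. With the replicate number as a block, limma called 0 members (0 with an unadjusted p under 0.05) and 0 genes of the whole table, against 16 without it, and the median of the members was -1.30 in both. The depth behind single values is unknown, so the members under 1 FPKM in 4X replicates 2 and 3 have no interval for counting error.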

Other observations

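The arrangement of the 8 members had a mirror image in the table. In 728 genes 4X replicate 1 lay above and 4X replicates 2 and 3 below every 2X library, and in 614 genes the order was the opposite. Asked for a distance of at least 0.5 above the highest and at least 1 below the lowest 2X library on the log2(FPKM + 1) scale, limits that were set after the values were seen, 19 genes remained. Of these, 6 were members of the run and 1 was its neighbour VIT_11s0052g01180, and the other 2 of the 8 members, g01330 and g01340, missed the upper limit.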
